A study of Homo sapiens with 5 samples.

Results

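The immediate early and MAPK feedback genes are 36 genes named in a list: the FOS and JUN families, EGR1 to EGR3, SRF, early-response genes such as IER2, IER3, MYC, GEM and PHLDA1, the MAPK phosphatases of the DUSP family, the Sprouty and SPRED inhibitors, the ETV factors and 3 Krueppel-like factors. They were found by symbol among the array features annotated with exactly 1 gene, and 35 of the 36 were measured, out of 14232 genes in all. EGR2 had no such feature and is not analysed here. Each of the 35 had a single feature, so the rule of taking the brightest feature had no effect on them. The measurements come from 5 human exon arrays (n = 5). A549 is an established lung adenocarcinoma line with, per the submitters, loss of function of the kinase LKB1 (gene STK11) and raised NEDD9, a scaffold protein of focal adhesions. One array is its control, and 1 array each came from knockdown with a different short hairpin RNA to NEDD9, called hairpin 1 and hairpin 2. CRL-5907 is a lung cancer line that, per the submitters, has wild-type LKB1 and little NEDD9. It has 1 control array and 1 array of cells that overexpress NEDD9. Whether the controls carried a vector, how long NEDD9 had been altered and whether cells were serum-starved is not given in the sources used here.

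Immediate early genes are transcribed within minutes of a growth factor, adhesion or stress signal and need no new protein synthesis. The RAS-RAF-MEK-ERK cascade activates ternary complex factors and SRF at their promoters, and many of the products, such as FOS, JUN and EGR1, are transcription factors that drive the next wave of genes. Other products close the loop. DUSP phosphatases remove the activating phosphates from ERK, JNK or p38, and Sprouty and SPRED proteins restrain the cascade near RAS and RAF. Scaffolds of the Cas family, to which NEDD9 belongs, link integrins and SRC kinases to RAS, RAC and JNK signalling.

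Each value is a log2 expression level from the deposited table, so a difference of 1 is a 2-fold change. NEDD9 itself had levels of 8.94, 8.35 and 8.52 on the A549 control, hairpin 1 and hairpin 2 arrays, which is a change of -33.4% and -24.8% with the hairpins, and of 4.66 and 9.49 on the CRL-5907 control and overexpression arrays. Knockdown was partial (adjusted p = 0.369 with limma), and overexpression was 28.5-fold. The control value lay below its array's median and background detection is not given, so the size of that fold is uncertain. Over all features, arrays of A549 correlated with each other at 0.989 to 0.991, the CRL-5907 pair at 0.989, and arrays of different lines at 0.948 to 0.953. The 6 epithelial markers looked up, among them KRT8, KRT18 and CDH1, lay above the array median on all arrays. None of 3 leukocyte, 4 fibroblast and 4 endothelial markers did so, and PTPRC, the pan-leukocyte marker, was at 1.72 on each array. CD14, a monocyte marker, was at 6.47, 6.08 and 5.63 on the A549 arrays and at 6.91 and 6.96 on the CRL-5907 arrays, above the median on all but the hairpin 2 array. Its part in the results was not tested. STK11 was at 6.23, 6.11 and 6.13 on the A549 arrays and at 6.13 on both CRL-5907 arrays, so its level did not mark the loss of function. Of the 35 genes, 30 lay above the median of all genes on all 5 arrays (array medians 5.70 to 5.86), and EGR3 lay below it on all 5. A level is an average over a culture, so fewer cells with a transcript and less transcript per cell cannot be told apart. Because there is 1 array per condition, the only spread that can be measured is the one between the 2 hairpins. Over the 1000 genes nearest in level, the difference between the hairpin arrays had an SD of 0.14 to 0.23 for these genes (median 0.16). That SD may also hold differences in what the hairpins do.

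**Figure D1:**
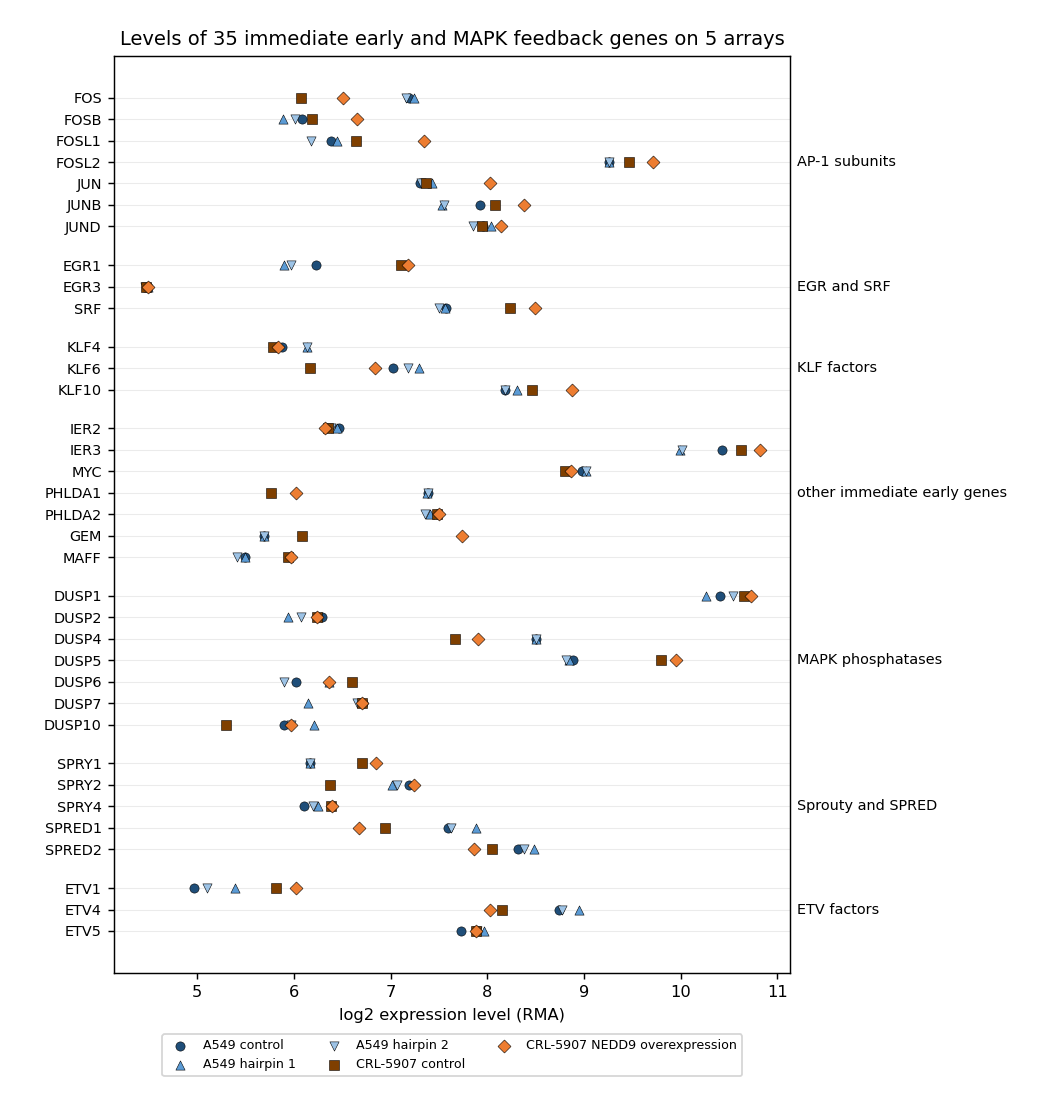
Log2 expression level (x axis) of the 35 genes (y axis, grouped by role) on the 5 arrays, 1 symbol per array and no error bars because each condition has 1 array. GEM and SPRY2 show the wide step from the CRL-5907 control to overexpression, and PHLDA1 and FOS the step between the lines.

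With NEDD9 overexpression in CRL-5907 most of these genes lay above the control array. The median log2 difference was 0.16 over the 35 genes and 0.00 over all 14232 genes. Of the 35, 28 were above control (80.0%, against 48.1% of all genes) and 7 were below it. At least 1.5-fold higher were 6 of the 35 (17.1%): the GTPase gene GEM, the feedback inhibitor SPRY2, the AP-1 subunits FOSL1 and JUN, the phosphatase DUSP10 and the factor KLF6. Over all genes 2.9% passed that fold upwards. None of the 35 was 1.5-fold lower, where 1.35% of all genes were. Most of these genes are well expressed, and genes at or above the median level also leaned upwards (median 0.05, 59.1% above control, 3.11% at least 1.5-fold higher). Overexpression has 1 array on each side and was given no test, so the count is read only against that background. The lean was smaller under other scalings. After the arrays were quantile-normalized once more 23 of the 35 were above control and 11 below, with a median of 0.08. With the dependence of the difference on level subtracted 22 were above and 13 below, with a median of 0.09. The count past 1.5-fold was 5 when either was done, as JUN then lay at 0.56 and 0.58.

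**Figure D2:**
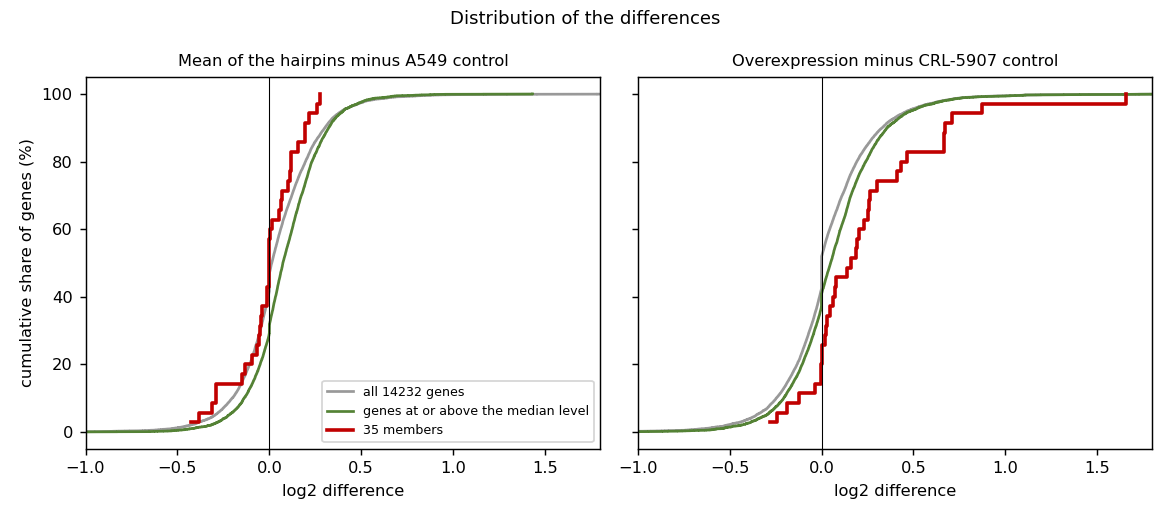
Cumulative share (y axis, %) of log2 differences (x axis) for all 14232 genes, for genes at or above the median level and for the 35 genes. In the overexpression panel the 35 genes lie to the right of both other curves (median 0.16 against 0.00 and 0.05), while in the knockdown panel their median is 0.00. The step at 1.66 is GEM.

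GEM, a small GTPase of the RAD and GEM family that is induced by mitogens, had the largest difference. Its level was 6.08 on the CRL-5907 control and 7.74 with overexpression, a difference of 1.66 or 3.16-fold, and the 12th highest of all 14232 genes. In A549 GEM had exactly the same value, 5.70, on the control and both hairpin arrays, which is below the median of each. RMA can assign equal values to several arrays, so the 0.00 does not show that GEM was unchanged there. SPRY2, a Sprouty protein that is induced by ERK and restrains the cascade, was at 6.37 and 7.24 (0.87, or 1.83-fold, 104th highest). In A549 SPRY2 was at 7.19 on the control and at 7.01 and 7.07 with the hairpins.

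All 7 AP-1 subunits were higher with overexpression, by 0.19 to 0.71 with a median of 0.43, and all 7 remained above 0 under each scaling alternative. Above control in the deposited values were also 80.0% of the 35 genes, 48.1% of all genes and 59.1% of genes at or above the median level. AP-1 is the dimer that FOS and JUN proteins form on DNA. FOSL1, which encodes the FOS-related subunit FRA-1 and is a target of sustained ERK activity, was at 6.64 and 7.35 (1.63-fold). JUN was at 7.37 and 8.03 (1.59-fold). FOSB was at 6.19 and 6.65 and FOS at 6.07 and 6.51, differences of 0.46 and 0.43 that did not reach 1.5-fold. JUNB (8.08 and 8.38), FOSL2 (9.46 and 9.71) and JUND (7.95 and 8.14) differed by 0.30, 0.25 and 0.19. The family thus differed in the same direction by unequal amounts, and JUND, which is expressed constitutively in many cells, differed least.

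The SRF and EGR genes differed by 0.02 to 0.26. SRF, the factor that binds serum response elements, was at 8.23 and 8.49 (0.26). EGR1, a zinc-finger factor and a standard readout of ERK and SRF activity, was at 7.11 and 7.18. Its difference of 0.07 turned to -0.01 after quantile normalization. EGR3 was at 4.47 and 4.49, below the array median. Among the Krueppel-like factors KLF6 was at 6.17 and 6.83 (1.59-fold), KLF10, a TGF-beta inducible factor, at 8.46 and 8.87 (0.41), and KLF4 at 5.79 and 5.83.

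The other early-response genes differed less, apart from GEM. PHLDA1, a pleckstrin-homology-like gene that ERK activity induces, was at 5.76 and 6.03 (0.26), and IER3, an early survival gene, at 10.62 and 10.82 (0.20). MYC (8.80 and 8.86), MAFF, a small MAF factor (5.94 and 5.97), PHLDA2 (7.48 and 7.50) and IER2 (6.35 and 6.32) differed by 0.06 or less in either direction. GEM was thus the only one of these 7 genes past 1.5-fold.

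The feedback genes differed from control in both directions. Of the 7 MAPK phosphatases, DUSP10, which acts on JNK and p38 rather than ERK, was at 5.30 and 5.97 (0.67, or 1.59-fold). Its control value lay below the array median, and background detection is not given, so the size of the fold is uncertain. The nuclear phosphatases DUSP4 (7.67 and 7.90), DUSP5 (9.79 and 9.95) and DUSP1 (10.65 and 10.73) were higher by 0.23, 0.16 and 0.08, and DUSP2 was at 6.24 on both arrays. DUSP6, the cytoplasmic ERK phosphatase whose transcript is a common ERK readout, was lower, at 6.61 and 6.36 (-0.24), and its relative DUSP7 was at 6.71 on both.

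Within the Sprouty and SPRED family, SPRY2 stood at 0.87 while SPRY1 (6.70 and 6.84) and SPRY4 (6.39 on both) differed by 0.14 and 0.00. Both SPRED genes, which encode membrane-bound inhibitors of RAF activation, were lower. SPRED1 was at 6.95 and 6.67 (-0.28) and SPRED2 at 8.05 and 7.86 (-0.19). The ETV factors are ETS-family proteins of the PEA3 group that act downstream of ERK. ETV1 was at 5.81 and 6.02 (0.21), ETV5 at 7.88 on both and ETV4 at 8.15 and 8.03 (-0.12). DUSP6, SPRED1, SPRED2 and ETV4 were thus below control while the AP-1 genes were above it. The former were named for their direction and form no group fixed beforehand, so no difference between groups was tested. Above control were 4 of 7 MAPK phosphatases, 3 of 5 Sprouty and SPRED genes and 2 of 3 ETV factors.

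**Figure D3:**
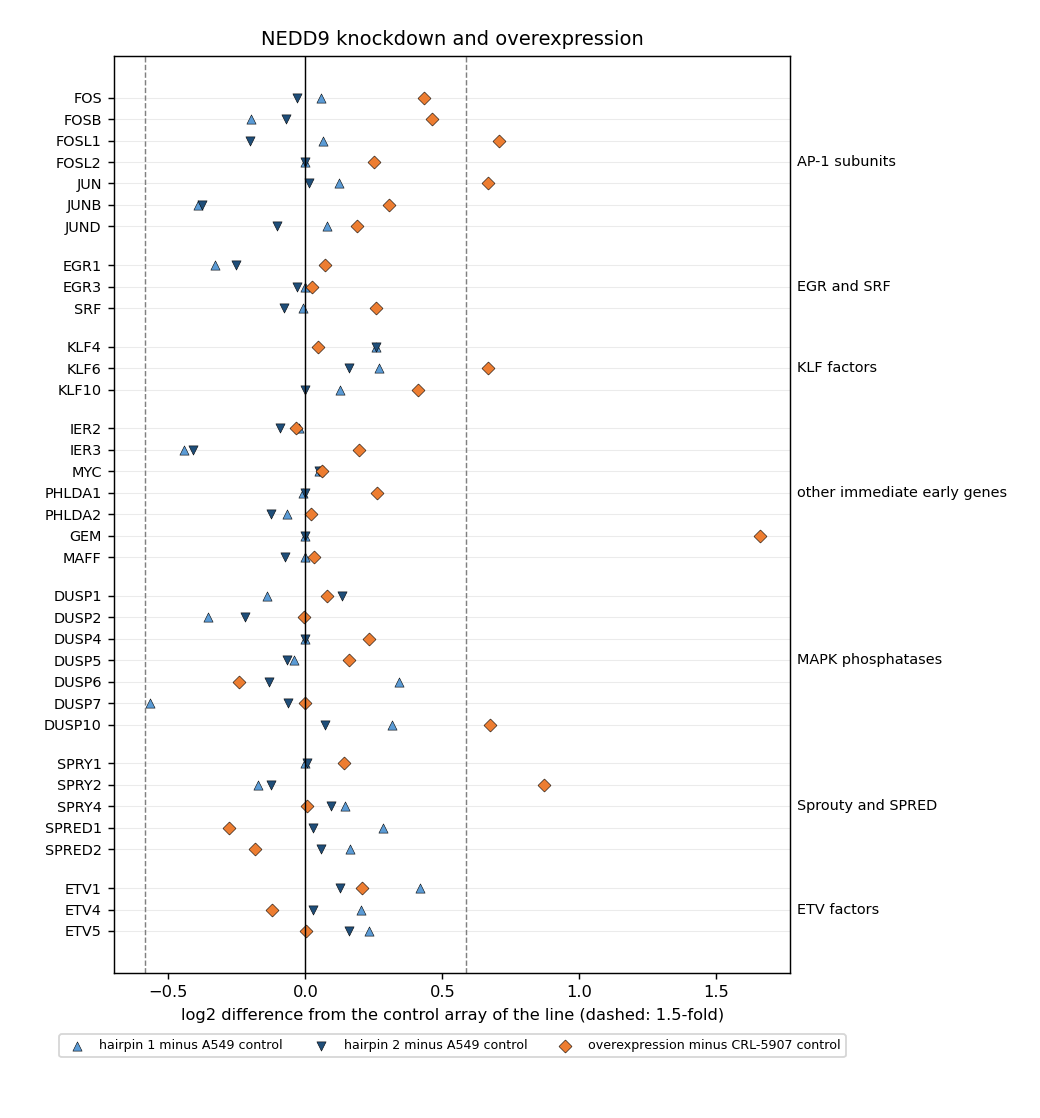
Log2 difference from the control array of the same line (x axis, dashed lines at 1.5-fold) for each gene (y axis), with both hairpins in A549 and overexpression in CRL-5907. The 6 orange symbols beyond the right dashed line are GEM, SPRY2, FOSL1, DUSP10, KLF6 and JUN, and no hairpin value crosses either line.

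With NEDD9 knockdown in A549 none of the 35 genes reached 1.5-fold, with both hairpins or with either one. Over all genes 0.794% were at least 1.5-fold higher and 0.302% lower with both hairpins. For hairpin 1 alone the shares were 2.59% and 1.27%, and for hairpin 2 alone 1.57% and 0.913%. Centring the arrays on their medians changed the higher share of all genes past the fold from 72.4% to 60.9% with both hairpins and from 67.1% to 51.7% with hairpin 1. The median difference of the 35 genes was 0.00 with hairpin 1 and -0.00 with hairpin 2, against 0.02 and 0.00 over all genes and 0.10 and 0.05 over genes at or above the median level. These medians depended on the scaling. After quantile normalization they were -0.07 with each hairpin for the 35 genes, against -0.003 and -0.005 over all genes. With hairpin 1, 11 of the 35 were then above control and 24 below (16 and 13 before). With hairpin 2, 7 were above and 28 below (13 and 18 before). With the dependence on level subtracted the medians of the 35 were -0.05 and -0.06. limma, fitted to the 3 A549 arrays over all 14232 genes, called 0 of 35 and 0% of all genes at an adjusted p under 0.05 (Benjamini-Hochberg). It has 1 residual degree of freedom, and takes the spread between the hairpins for the error of the control as well. At an unadjusted p under 0.05 it gave 3 of 35 (JUNB, IER3 and KLF4, 8.57%) and 15.6% of all genes.

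The genes furthest below control were IER3 and JUNB, each by nearly the same amount with both hairpins. IER3 had levels of 10.43 on the control and 9.99 and 10.02 on the hairpin 1 and 2 arrays, a mean difference of -0.43 ± 0.02 (SD over the hairpins, n = 2). JUNB, the subunit that often restrains JUN, had levels of 7.93, 7.54 and 7.55, a mean of -0.38 ± 0.01. In percent, JUNB changed by -23.8% and -22.9% and IER3 by -26.4% and -24.8%. Both hairpin values lay below control and close to each other. They subtract the same control array, whose own error this SD leaves out. limma gave an adjusted p of 0.276 for both genes. IER3 ranked 297th lowest and JUNB 418th lowest of all genes by the mean difference.

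By the mean of the hairpins DUSP7 came next (617th lowest), followed by EGR1 and DUSP2 (733rd and 744th). EGR1 was at 6.23 on the control and at 5.90 and 5.97 with the hairpins (-0.29 ± 0.05, adjusted p = 0.328 with limma). DUSP2, a nuclear phosphatase of ERK and p38, was at 6.29, 5.94 and 6.07 (-0.29 ± 0.10, adjusted p = 0.430). For other genes the hairpin arrays lay apart. DUSP7 was at 6.72 on the control and at 6.15 and 6.65 on the hairpin arrays, so its difference of -0.57 with hairpin 1 came with -0.06 for hairpin 2. It missed 1.5-fold narrowly and passed it with hairpin 1 after the arrays were centred (-0.62). DUSP6 was above control with hairpin 1 (6.37 against 6.03) and below it with hairpin 2 (5.89). DUSP1 did the reverse, with 10.27 and 10.54 around a control of 10.40.

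The remaining AP-1 genes showed no common direction in A549 in the deposited values. FOS had levels of 7.19 on the control and 7.24 and 7.16 with the hairpins, JUN of 7.30, 7.43 and 7.32, and FOSB of 6.08, 5.88 and 6.01. FOSL1 was at 6.38, 6.44 and 6.18 and JUND at 7.96, 8.04 and 7.85. After quantile normalization the hairpin 1 differences of FOS (-0.07), FOSL1 (-0.03), JUN (-0.006) and JUND (-0.03) turned negative. So did the hairpin 2 difference of JUN (-0.06). FOS, FOSB, FOSL1, JUN and JUND then lay below control with both hairpins, as JUNB did. A common direction of these genes thus depended on the scaling. In that scaling 24 of the 35 genes lay below control with hairpin 1 and 28 with hairpin 2. FOSL2 had exactly the same value, 9.26, on the 3 A549 arrays, as had DUSP4 at 8.50. At their lowest over the scalings the FOSL2 differences were -0.13 with hairpin 1 and -0.08 with hairpin 2. SRF (7.58, 7.57 and 7.50) and PHLDA1 (7.38, 7.37 and 7.38) lay within 0.08 of control.

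The ETV genes, KLF4 and KLF6 lay above control with both hairpins, as did 39.6% of all genes and 53.8% of genes at or above the median level. ETV1 was at 4.97, 5.39 and 5.10, below the array median on all 3, ETV5 at 7.73, 7.96 and 7.89 and ETV4 at 8.74, 8.95 and 8.77. The hairpin 2 difference of ETV4 (0.03) turned to -0.05 after quantile normalization. KLF6 was at 7.03, 7.29 and 7.19 (0.21 ± 0.08). KLF4, a factor that limits epithelial proliferation, was at 5.87 on the control and at exactly 6.13 with both hairpins, a difference of 0.26 with an adjusted p of 0.276 in limma that rests on identical hairpin values. SPRED1 was at 7.60, 7.88 and 7.62 and SPRED2 at 8.32, 8.48 and 8.38. MYC was at 8.97, 9.02 and 9.03.

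Knockdown and overexpression use different lines and share no array, so their directions can be set side by side. Lower with both hairpins were 11 of the 35 (31.4%, against 27.7% of all genes), and 80.0% were higher with overexpression. For the 35 genes, the share lower with both hairpins and higher with overexpression (22.9%) is not above the product of 31.4% and 80.0%. No joint share was tested. Of the 35 genes 8 were lower with both hairpins and higher with overexpression (22.9%, against 10.1% of all genes): FOSB, JUNB, EGR1, IER3, DUSP5, SPRY2, PHLDA2 and SRF. Another 8 were higher in all of these comparisons (22.9%, against 24.2% of all genes), among them JUN, KLF6 and DUSP10. IER2, DUSP2 and DUSP7 were lower in all of them (8.57%, against 14.3% of all genes). The 3 genes higher with both hairpins and lower with overexpression were SPRED1, SPRED2 and ETV4 (8.57%, against 13.8% of all genes). The hairpin 2 differences of these 3 genes, 0.03 to 0.06, turned negative after quantile normalization and with the dependence on level subtracted, and that of JUN (0.01) turned negative under all 3 other scalings. JUNB was the only one of the 35 at least 0.25 lower with both hairpins and at least 0.25 higher with overexpression (0.576% of all genes), a bound chosen after its values were seen. Its overexpression difference was under that bound in both of those scalings (0.23 and 0.24). With the dependence on level subtracted, EGR1, PHLDA2, SPRY4, ETV5 and MYC were no longer higher with overexpression.

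**Figure D4:**
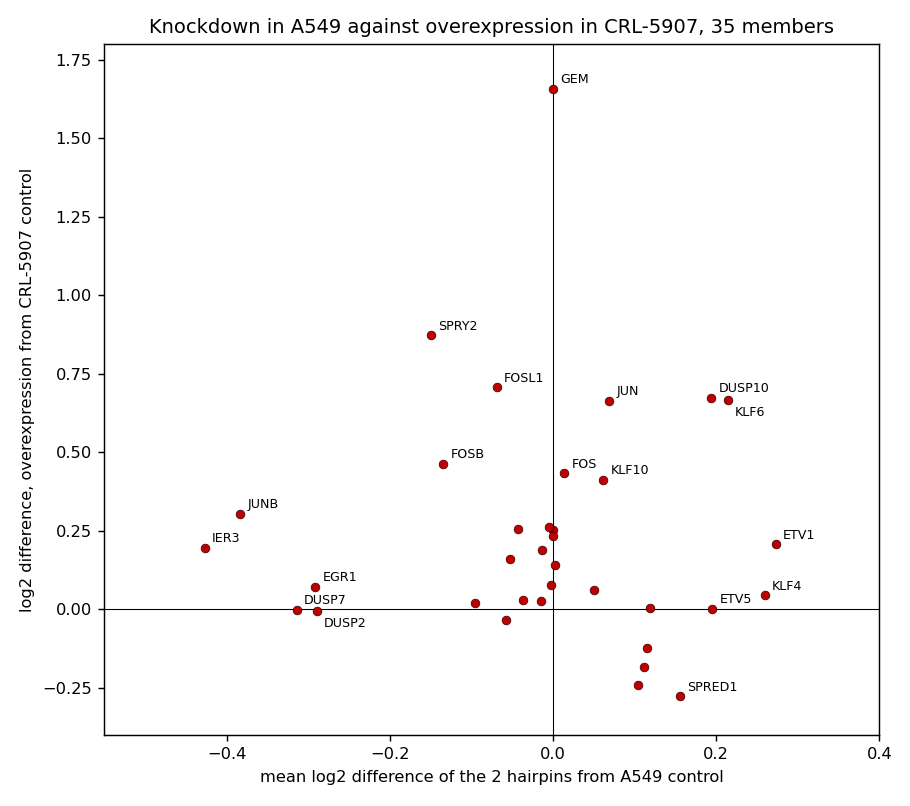
Mean log2 difference of the 2 hairpins from the A549 control (x axis) against the log2 difference of overexpression from the CRL-5907 control (y axis), 1 point per gene. JUNB and IER3 lie furthest left (-0.38 and -0.43) and above 0, and GEM lies at 0.00 on the x axis and 1.66 on the y axis.

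Promoter sequence was looked up for the genes the comparisons turn on, to show which response elements lie before their start sites. Of the 36 listed genes 25 had an entry in the RefSeq promoter table (GRCh38.p14), with 39 start sites in all, and the 250 bases before each start site were searched on both strands. The stretches below are the last 150 bases before the start site, written 5′ to 3′ along the gene. Capitals mark matches to the SRF-binding CArG box (EGR1, SRF), the EGR site GCGGGGGCG (KLF6, SPRY2, SRF), the CRE core TGACG (JUN, JUNB, EGR1, FOS, FOSB, SRF) and the TATA box TATAAA (JUNB, FOS, FOSB). JUN, KLF6 and SPRY2 are shown because they were past 1.5-fold with overexpression, JUNB and EGR1 because they were among the lowest with the hairpins, FOS because it differed between the lines, FOSB as its closest relative, and SRF as the factor that binds the CArG box.
JUN, chr1:58784048-58784197 (minus strand): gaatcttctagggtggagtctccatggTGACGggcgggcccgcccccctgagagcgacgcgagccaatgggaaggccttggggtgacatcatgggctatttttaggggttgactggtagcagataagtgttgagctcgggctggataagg
KLF6, chr10:3785210-3785359 (minus strand): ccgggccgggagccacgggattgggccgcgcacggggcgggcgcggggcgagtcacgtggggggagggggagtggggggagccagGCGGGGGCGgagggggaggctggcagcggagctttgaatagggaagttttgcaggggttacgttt
SPRY2, chr13:80341127-80341276 (minus strand): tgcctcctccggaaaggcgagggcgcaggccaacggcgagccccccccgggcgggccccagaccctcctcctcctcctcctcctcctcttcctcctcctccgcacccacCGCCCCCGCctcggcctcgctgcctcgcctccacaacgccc
JUNB, chr19:12791336-12791485 (plus strand): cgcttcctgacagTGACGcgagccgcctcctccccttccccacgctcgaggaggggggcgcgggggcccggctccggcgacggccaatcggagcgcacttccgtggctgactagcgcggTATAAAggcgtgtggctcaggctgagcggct
EGR1, chr5:138465329-138465478 (plus strand): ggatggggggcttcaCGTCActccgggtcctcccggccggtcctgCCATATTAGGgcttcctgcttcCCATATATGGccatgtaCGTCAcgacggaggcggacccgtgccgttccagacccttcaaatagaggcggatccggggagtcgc
FOS, chr14:75278678-75278827 (plus strand): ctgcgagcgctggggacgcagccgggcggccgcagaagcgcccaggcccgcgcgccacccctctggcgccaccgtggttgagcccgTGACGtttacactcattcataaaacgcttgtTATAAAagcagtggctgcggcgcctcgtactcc
FOSB, chr19:45467846-45467995 (plus strand): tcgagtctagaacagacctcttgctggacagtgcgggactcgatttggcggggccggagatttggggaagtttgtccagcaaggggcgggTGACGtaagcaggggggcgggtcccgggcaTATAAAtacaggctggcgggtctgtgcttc
SRF, chr6:43171119-43171268 (plus strand): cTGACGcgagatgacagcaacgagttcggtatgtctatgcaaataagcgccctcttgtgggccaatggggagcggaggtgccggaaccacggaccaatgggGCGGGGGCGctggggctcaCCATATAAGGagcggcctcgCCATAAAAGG

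EGR1 holds 2 CArG boxes, which begin 105 and 83 bases before the start site, and SRF holds 2 at 30 and 10 bases. With EGR2 these are the 3 listed genes that have one in this window, or 3 of 39 start sites (7.69%), against 1.16% of 35116 start sites in the table. Sequence beyond 250 bases was not searched, so a CArG box further upstream in FOS or another gene would not be counted. FOS and FOSB share a layout, with the CRE core 64 and 60 bases and the TATA box 33 and 30 bases before the start site, and JUNB has the core at 137 and the TATA box at 31 bases. The core was found at 18 of the 39 start sites (46.2%) and at 21.2% of all, and its full palindromic form TGACGTCA, which contains the core on both strands, at 3 (DUSP1, JUND and MAFF, 7.69%) and at 1.65% of all. The EGR site was found at 5 (12.8%, against 4.72%) and the TATA box at 5 (12.8%, against 10.7%). The AP-1 site TGAGTCA was at none of the 39, and at 4.20% of all. Only this exact spelling was searched, so variant AP-1 sites were not counted. A match describes these letters only and was not tested as a site in these cells. SPRY2 and SRF have further start sites in the table (3 and 2 in all), of which the one with most matches is shown.

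Between the control arrays, PHLDA1 and FOS were at least 2-fold higher in A549 than in CRL-5907 (2 of 35, 5.71%, against 6.44% of all genes), and none of the 35 was 2-fold lower (3.53% of all genes). The shares of higher genes are alike, and the median difference was -0.06 over the 35 genes and 0.01 over all. PHLDA1 was at 7.38 in A549 and 5.76 in CRL-5907 (1.62, or 3.07-fold), and FOS at 7.19 and 6.07 (1.11, or 2.16-fold). KLF6 (7.03 and 6.17), DUSP4 (8.50 and 7.67) and SPRY2 (7.19 and 6.37) were higher in A549 by 0.86, 0.84 and 0.82. In the other direction were DUSP5, the nuclear ERK phosphatase (8.88 and 9.79, -0.91), EGR1 (6.23 and 7.11, -0.88), ETV1 (4.97 and 5.81, -0.84) and SRF (7.58 and 8.23, -0.66). DUSP5 passed 2-fold in all 3 other scalings tried, at -1.06 after quantile normalization, and EGR1 in that one (-1.03). Genes regarded as readouts of the same pathway thus differed in opposite directions between the lines. DUSP4, SPRY2, ETV4 (8.74 and 8.15) and SPRED1 (7.60 and 6.95) were higher in A549, and DUSP6 (6.03 and 6.61), SPRY1 (6.16 and 6.70), DUSP5 and EGR1 were higher in CRL-5907. The lines differ in origin and in much besides LKB1 and NEDD9, which cannot be told apart here. These differences share their control arrays with the manipulations above, and the values are given side by side only.

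**Figure D5:**
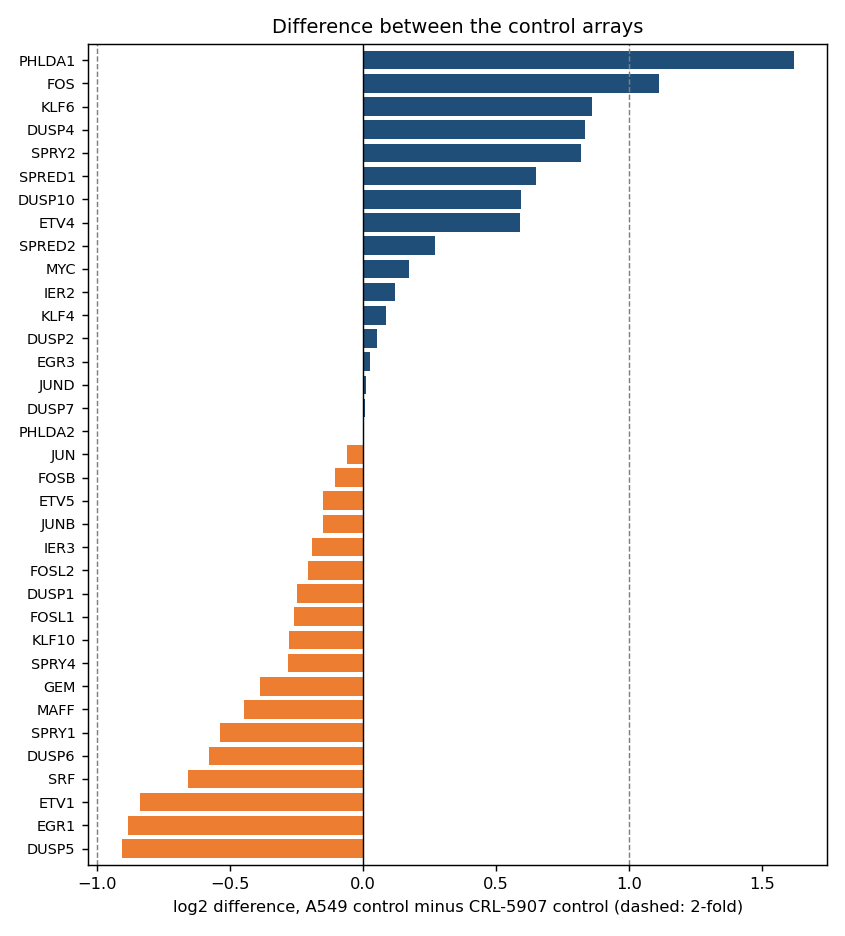
Log2 difference of the A549 control array from the CRL-5907 control array (x axis, dashed lines at 2-fold) for the 35 genes, ordered by size, 1 array per line and no error bars. PHLDA1 (1.62) and FOS (1.11) pass the line on the A549 side, and DUSP5 (-0.91) and EGR1 (-0.88) lie furthest on the CRL-5907 side.

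The rest of the pathway was read from 5 further lists. Over all genes 0.794% were past the fold upwards and 0.302% downwards with both hairpins, and 2.9% and 1.35% with overexpression. Between the lines 6.44% of all genes were 2-fold higher in A549 and 3.53% lower. Of 31 genes of the RAS-ERK cascade 20 had a feature of their own. None of the 20 reached 1.5-fold with both hairpins, and with overexpression 1 was higher and none lower. Their median with overexpression was 0.10, against 0.00 over all genes and 0.05 over genes at or above the median level. That one was PEBP1, the RAF kinase inhibitor protein, at 8.32 and 9.02. Between the lines RPS6KA3, which encodes the ERK-activated kinase RSK2, was higher in A549 (8.29 and 7.04), and MAPK3, which encodes ERK1 (8.79 and 9.90), and the MEK-binding adaptor LAMTOR3 (6.63 and 7.75) were higher in CRL-5907. Of 7 measured JNK and p38 kinase genes, MAPK9, which encodes JNK2, was 1.5-fold higher with overexpression (6.85 and 7.53), none was with both hairpins, and MAP2K6 (5.57 in A549 and 8.14 in CRL-5907) and MAP3K5 (4.56 and 6.32) were lower in A549. None of 8 measured transcription factors that ERK and SRF signalling act through, nor of 6 measured further DUSP phosphatases, passed the fold in any of these comparisons.

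Of 20 measured other immediate early and ERK output genes, 16 were above control with overexpression (median 0.12, against 48.1% above control and a median of 0.00 over all genes) and 3 were at least 1.5-fold higher (2.9% of all genes). The 3 were BHLHE40, a circadian and hypoxia-responsive repressor (8.01 and 8.77), ATF3, a stress-induced factor of the ATF family (5.44 and 6.17), and PLAUR, the urokinase receptor and an AP-1 target (7.67 and 8.30). ATF3 lay below the array median (5.70) on the CRL-5907 control, so the size of its fold is uncertain. Genes at or above the median level also leaned upwards with overexpression (median 0.05, 59.1% above control, 3.11% at least 1.5-fold higher). The lean of the 20 genes was not examined under other scalings. With knockdown 0 of the 20 passed 1.5-fold with both hairpins (0.794% of all genes higher, 0.302% lower). Between the lines CCN2 (7.98 in A549 and 6.40 in CRL-5907), ERRFI1, an inhibitor of the EGF receptor (10.24 and 8.98), and BHLHE40 (9.21 and 8.01) were at least 2-fold higher in A549, as were 6.44% of all genes.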

How the data were processed

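Per the labels' protocols, RNA was prepared with Trizol from 5 cell line samples and cleared of ribosomal RNA, and sense-strand target was labelled for the arrays. The authors deposited log2 levels of 22011 features. Their processing notes, as GEO holds them per the labels, name RMA and the Affymetrix Power Tools without a version. The base of the logarithm was taken from RMA and the range of the values. RMA corrects background, quantile-normalizes the arrays and summarises probes, and it can give several arrays exactly equal values. Genome build and background detection per feature are not given in the sources used here. Samples were grouped by their titles; for the hairpin 2 sample the description names NEDD10, and the title was followed.

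Features with 1 symbol in the platform annotation (14432; 2408 had several and 5171 none) gave 14232 genes, by the brightest feature of each. The 35 symbols all matched RefSeq by Entrez number. Differences were taken from the control array of each line. Counts used 1.5-fold, and 2-fold between lines, over all genes without a level filter. For knockdown the 3 A549 arrays entered limma (version 3.58.1, R version 4.3.3; lmFit, then eBayes with trend, prior degrees of freedom 0.577) and Benjamini-Hochberg adjustment over all genes. The steps were tested on simulated data. Differences between single arrays received no test, and arrays limit the precision by their number. The labels do not say whether arrays came from separate cultures. The genes, lists and folds were chosen with earlier results of these data known. All 35 genes may be named; other pathway genes were named when past the fold, at most 6 per list and comparison, beside NEDD9 and STK11 as checks and the cell type markers. Alternatives were other scalings, a level filter, other folds, the mean of a gene's features, each hairpin left out and other limma settings.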

Additional observations from a re-analysis of the deposited data

How the results depend on the processing

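Over the scalings tried (centred arrays, a further quantile normalization and, added after seeing the data, removal of the trend with level) none of the 35 genes that was past the fold changed sign. Centring and trend removal each brought 1 of the 35 past 1.5-fold lower with hairpin 1 (DUSP7) and 1 past 2-fold lower in A549 than in CRL-5907 (DUSP5), and quantile normalization 1 and 2. At 2-fold 1 of the 35 (GEM) remained higher with overexpression. At 1.5-fold 8 were higher and 4 lower in A549 than in CRL-5907 (13.5% and 8.07% of all genes). limma called 0 genes under each of its settings (no trend, level filter, feature means, all 5 arrays), with 1242 to 2240 genes at an unadjusted p under 0.05. With 1 hairpin left out no residual degree of freedom was left for limma.

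Counts over all genes depended on the filter and the fold. With genes below the median level left out they were 40 higher and 6 lower with both hairpins (113 and 43 without the filter), 167 and 28 with hairpin 1 (369 and 181), 80 and 28 with hairpin 2 (223 and 130), 222 and 53 with overexpression (413 and 192) and 604 and 297 between the lines (916 and 502). At 2-fold they were 16 and 3, 54 and 23, 35 and 22, and 74 and 25 for the first 4 of these, and at 1.5-fold 1917 and 1149 between the lines. Without one hairpin the knockdown counts ranged from 223 to 369 higher and from 130 to 181 lower, with 0 of the 35 genes among them. The fewer genes tested, the higher fold or the fewer arrays required set these changes. Both controls and overexpression are single arrays, so their own error was not measured, and limma takes that of the A549 control from the hairpins.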

Other observations

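FOSL1 is also named, together with LARP1B, in the annotation of a further feature, which was not used because it has several symbols. Its log2 levels were 4.25, 4.39 and 4.25 on the A549 control, hairpin 1 and hairpin 2 arrays and 4.10 and 4.25 on the CRL-5907 control and overexpression arrays, below the array median on each.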
